A study of Drosophila melanogaster with 3 samples.

Results

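The proteasome subunit genes of Drosophila melanogaster were taken by symbol from the Ensembl annotation of the dm6 genome build, as the protein-coding genes whose names begin with Rpn, Rpt, Prosalpha or Prosbeta followed by a digit. Of 13945 protein-coding genes, 48 met this rule. General subunits, whose symbols end in the digit, made up 32 of them: 6 Rpt, 12 Rpn, 7 Prosalpha and 7 Prosbeta genes. The other 16 carry a letter after the digit and are paralogs of general subunits: Rpt3R, Rpt4R, Rpt6R, Rpn12R, Rpn13R, Prosalpha1R, Prosalpha3T, Prosalpha4T1, Prosalpha4T2, Prosalpha6T, Prosbeta2R1, Prosbeta2R2, Prosbeta4R1, Prosbeta4R2, Prosbeta5R1 and Prosbeta5R2.

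The proteasome is the protease that degrades proteins tagged with ubiquitin. Its core particle is a barrel of alpha rings, which gate the entrance, around beta rings, which hold the proteolytic sites. The regulatory particle caps the barrel, and its Rpt subunits form a ring of ATPases that unfolds substrates, while its Rpn subunits recognise ubiquitin, remove it and scaffold the particle. Members with a T or R suffix are known in flies chiefly from the testis, where some replace their general counterparts in developing sperm.

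Binding of Xbp1, a bZIP transcription factor that acts in the unfolded protein response, was mapped by ChIP-seq in whole embryos aged 0 to 24 h, with males and females mixed. Embryos were from 1 transgenic line in which Xbp1 carried green fluorescent protein at its C terminus, chromatin was sonicated to 200 to 800 bp, and an antibody to the tag was used. The 3 samples were biological replicates of that single group, so no conditions could be compared, and signal from different cell types of the embryo could not be told apart. The control sample was not analysed here. A gene is called bound below where the summit of a peak, its highest point, was at most 500 bp from any annotated start of the gene (a promoter peak) in the thresholded list. That list holds the 7291 peaks that passed the submitters' thresholding for reproducibility (the irreproducible discovery rate, IDR).

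Promoters of 20 of the 32 general subunits were bound (62.5%, exact 95% interval 43.7 to 78.9), beside 30.4% of all protein-coding genes. None of the 16 suffixed paralogs was bound (0.0%, interval 0.0 to 20.6), among them Prosalpha1R, whose sequence is not unique in the genome (below). Within the general set the classes differed in the thresholded list: 12 of 12 Rpn genes were bound, 5 of 7 alpha ring genes, 2 of 6 Rpt genes and 1 of 7 beta ring genes. The contrast between Rpn and Rpt depended on the list: pooled peaks taken at a q-value threshold of 0.05 gave 12 of 12 and 5 of 6, beside 39.8% of all protein-coding genes. Leaving out replicate 1, or replicate 2, gave 10 of 12 and 1 of 6. Here a thresholded peak had to overlap a peak among the 7291 strongest of both other replicates, so counts could only fall. The share of all protein-coding genes was not computed under that rule. In the thresholded list the regulatory particle as a whole had 14 bound genes of 18 (77.8%), and the core particle 6 of 14 (42.9%). These shares are descriptions beside the genome-wide share, without a test. The intervals treat the genes of a set as independent draws, which members of whole families with related copies are not. They do not measure the spread between replicates.

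The replicates gave the same picture when each was cut to its 7291 strongest peaks. General subunits bound numbered 18 in replicate 1, 21 in replicate 2 and 18 in replicate 3, a mean share of 59.4% ± 5.41 (SD, n = 3). The shares of all protein-coding genes in those lists were 29.6, 32.8 and 28.0%, below the general subunits in each. No suffixed paralog was bound in any of these lists. Rpn genes had a mean share of 91.7% ± 8.33 (SD, n = 3), with 11, 12 and 10 of 12 bound in replicates 1, 2 and 3. Rpt genes reached 33.3% ± 16.7, with 2, 3 and 1 of 6, so that Rpn and Rpt shares did not overlap between replicates at this cut. At q-values of 0.05 or less they did overlap. Rpt genes then had 2, 6 and 3 of 6 in replicates 1, 2 and 3, and Rpn genes 11, 12 and 11 of 12. The share of all protein-coding genes was not computed for those lists. The alpha ring share was 61.9% ± 21.8 and the beta ring share 23.8% ± 16.5 (SD, n = 3 each). Alpha and beta ring genes were separated in replicates 1 (4 against 1 of 7) and 3 (6 against 1), whereas replicate 2 had 3 of 7 in each, so the order did not hold in every replicate.

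**Figure D1:**
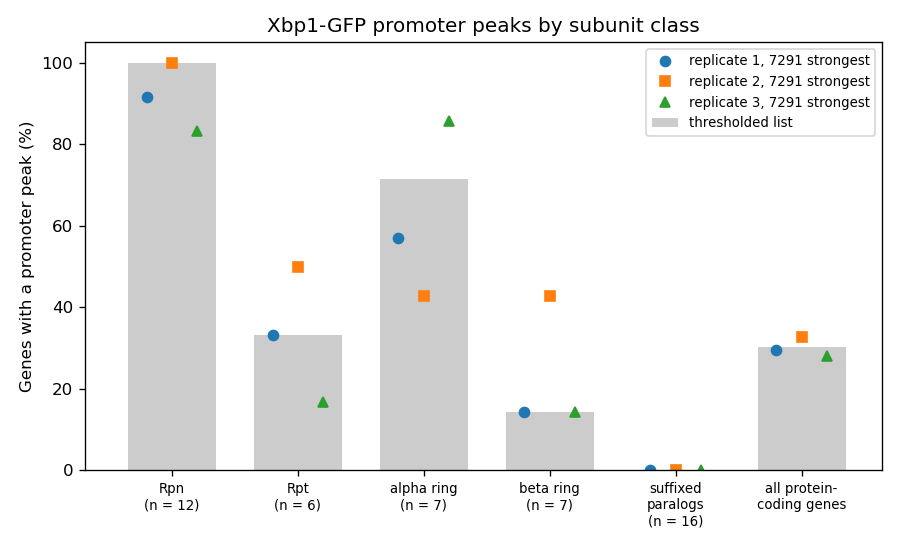
Percent of genes with a promoter peak for each class of general subunit, for the suffixed paralogs and for all protein-coding genes; bars give the thresholded list and points the 7291 strongest peaks of each replicate. Rpn genes lay between 83.3 and 100% in every list, and suffixed paralogs at 0.0%.

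Sequences around the summits are shown next because 1 short element, described further below, was found more often at the bound subunits than at bound promoters at large. Each line gives the stretch within 50 bp of the summit, 5′ to 3′ on the strand of the gene in dm6. Stretches are clipped where they would enter an annotated exon. They cover Rpn5, the strongest member, and some of the 10 bound members whose window holds the core of the DNA replication-related element (DRE). Windows of the other bound members, with and without that core, are not shown. Capitals mark that core, ATCGAT.
Rpn5 (chr3R:5789270-5789328, + strand): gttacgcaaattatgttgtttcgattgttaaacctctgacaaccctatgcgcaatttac
Rpn1 (chr3L:19914918-19915018, + strand): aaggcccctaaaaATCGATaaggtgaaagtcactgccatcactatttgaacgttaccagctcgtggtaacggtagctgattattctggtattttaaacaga
Rpn2 (chr3R:29153415-29153515, + strand): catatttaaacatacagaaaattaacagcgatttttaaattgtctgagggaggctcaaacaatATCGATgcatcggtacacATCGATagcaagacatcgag
Rpn12 (chr3L:16582909-16583009, + strand): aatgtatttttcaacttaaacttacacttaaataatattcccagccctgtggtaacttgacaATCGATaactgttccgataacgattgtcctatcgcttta
Rpt2 (chr3R:23931559-23931629, - strand): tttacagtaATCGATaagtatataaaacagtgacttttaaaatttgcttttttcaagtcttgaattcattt
Prosalpha6 (chr2L:10221300-10221350, + strand): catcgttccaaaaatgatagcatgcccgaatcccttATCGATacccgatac

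The full DRE, TATCGATA, is the binding site of the factor DREF and a common element of promoters of broadly expressed fly genes. Its copies in the promoters of the following subunit genes are given with 10 bases to each side, on the strand of the gene in dm6, with the DRE in capitals. The first 6 genes were bound and the last 2, Prosbeta2 and Prosbeta6, were not.
Rpt5 (chr3R:23752820-23752847, + strand): tcgctgtcacTATCGATAagcgccggcg
Rpn3 (chr2L:19051583-19051610, + strand): gttatcggagTATCGATAtcgaaaaggc
Rpn7 (chr3R:22462034-22462061, - strand): cggtataattTATCGATAattttggggt
Rpn9 (chr3R:23733419-23733446, - strand): cccggttaaaTATCGATAttctcgcgga
Rpn12 (chr3L:16582802-16582829, + strand): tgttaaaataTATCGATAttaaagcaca
Prosalpha6 (chr2L:10221325-10221352, + strand): ccgaatccctTATCGATAcccgatacac
Prosbeta2 (chr3L:14999931-14999958, + strand): catgaatataTATCGATAcaatatcgat
Prosbeta6 (chr3L:16610445-16610472, - strand): tatgtataccTATCGATAacgtttaagc

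The strongest promoter peaks of the family, those of Rpn5, Rpn3 and Rpn6, lay at lid subunits of the Rpn class. At Rpn5, a scaffold subunit of the lid, the signal was 914.0, rank 701 of 7291. Its signal was 401.3 in replicate 1 (rank 723), 227.2 in replicate 2 (rank 1165) and 283.5 in replicate 3 (rank 442), and as signal differs in scale between lists, only ranks are set side by side. Rpn5 ranked highest of the subunits in replicates 1 and 3 and below Rpn3 and Rpn6 in replicate 2.

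Rpn3, another lid subunit, had a signal of 690.8 at rank 1203. Its replicate signals were 300.7, 243.6 and 148.1, at ranks 1242, 1022 and 1429. Rpn6, the lid subunit that clamps the regulatory particle to the core, followed at 648.6 and rank 1348, with replicate signals of 286.6, 230.3 and 125.0 and ranks 1362, 1140 and 1885. These members stayed among the 2000 strongest peaks of each replicate.

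The remaining Rpn genes were weaker. Rpn13, a ubiquitin receptor, had a signal of 563.1 (rank 1659), and Rpn10, the other classical receptor of the particle, 365.6 (rank 3076). Rpn11, the deubiquitinase that removes ubiquitin chains from substrates, had 330.3 and its partner in the lid, Rpn8, had 347.4. The large scaffolds of the base, Rpn1 and Rpn2, had 306.1 and 273.6. The lid subunits Rpn12, Rpn7 and Rpn9 closed the class with 256.2, 239.3 and 194.5. Rpn9 was the weakest of the 20 bound members, against a lowest signal of 172.2 in the list, and its replicate ranks of 10971, 4181 and 7468 put it among the 7291 strongest peaks only in replicate 2.

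Of the base ATPases, Rpt5 and Rpt2 were bound. In yeast their C-terminal tails, with that of Rpt3, dock into the alpha ring. Rpt5 had a signal of 346.7 (rank 3285), with 139.7, 126.5 and 62.5 in replicates 1, 2 and 3 (ranks 3614, 3093 and 4508). Rpt2 had 218.9 (rank 5688), with 75.9, 97.0 and 38.6 in the replicates (ranks 7100, 4437 and 7389). Rpt5 was inside the 7291 strongest peaks of every replicate, and Rpt2 fell just outside them in replicate 3.

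The other Rpt genes had weak entries that did not reach the thresholded list. In the pooled list, which holds all 27099 entries before thresholding, Rpt1 stood at rank 8450 (q-value 0.00183), Rpt6 at 9429 (0.00504), Rpt3 at 9578 (0.006) and Rpt4 at 18849 (0.54). Rpt1 had ranks of 11075, 6084 and 9390 in replicates 1, 2 and 3. Rpt3 had 12350, 9477 and 7545. Replicate 2 was the only one in which any of these genes, Rpt1, was among the 7291 strongest. Rpt6 had ranks of 12773 and 7466 in replicates 1 and 2 and no entry in replicate 3, and Rpt4 had an entry in replicate 2 alone (rank 9263).

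Alpha ring genes were bound at moderate to low signal. Prosalpha3, whose yeast counterpart sits at the centre of the gate, had a signal of 307.9 (rank 3802) and 129.0, 90.6 and 73.3 in the replicates (ranks 3968, 4879 and 3757). Prosalpha4 had 244.5 (rank 5009), with 100.4, 83.3 and 65.8 in the replicates (ranks 5297, 5437 and 4257). Prosalpha5 had 230.9 (rank 5363), with 92.3, 84.8 and 48.6 (ranks 5787, 5312 and 5864). For these members all replicates fell within the 7291 strongest peaks. Prosalpha7 (219.3) had no promoter entry in replicate 1 and ranked 7325 and 4816 in replicates 2 and 3. Prosalpha6 (200.4) ranked 5568, 7446 and 5475.

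The alpha ring genes left unbound differed from each other. Prosalpha2 had a pooled entry at rank 11823 with a q-value of 0.05 as rounded, just above that threshold, no entry in replicate 1, and ranks of 9176 and 7011 in replicates 2 and 3. Prosalpha1 had no promoter entry in the pooled list or in any replicate, and its nearest pooled summit, which was also thresholded, was 3273 bp from its start. It was the only general subunit without a pooled entry. The sequence around its start is not unique in the genome: of the 31-base words within 500 bp of the start, 100% recurred elsewhere, and the same held for its tandem copy Prosalpha1R. Short reads from such a copy cannot be placed uniquely, how the submitters treated them is not given in the sources used here, and whether this pair was bound cannot be told from these lists. Of the other 46 members, 43 had no recurring word, and Rpn3, Prosalpha3 and Rpt6 had 10.7, 7.11 and 4.74% of them. Without the Prosalpha1 pair, 20 of 31 general subunits (64.5%) and 0 of 15 paralogs were bound, and 31 of 31 and 0 of 15 had a pooled entry, a comparison chosen after seeing the data.

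Among the beta ring genes, Prosbeta1, the caspase-like proteolytic subunit, was bound with a signal of 384.3 (rank 2898), the fifth-strongest of the subunits. Its replicate signals were 137.1, 137.8 and 101.5, at ranks 3697, 2707 and 2509, inside the strongest 7291 each time. The chymotrypsin-like subunit Prosbeta5 came closest of the others. With a pooled signal of 160.2 (rank 7866, q-value 0.000445) it was the first general subunit below the lowest thresholded signal, and it ranked 9903, 6329 and 18459 in the replicates.

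Prosbeta7, a non-catalytic subunit, stood at pooled rank 14537 and had an entry in replicate 2 alone, at rank 4697. Prosbeta4, also non-catalytic, stood at 15638, with ranks of 15783 and 11561 in replicates 1 and 2. Prosbeta6 was at 16792, with rank 16742 in replicate 2. The non-catalytic Prosbeta3, at 20281, ranked 17048 and 18748 in replicates 1 and 3, and Prosbeta2, the trypsin-like subunit, at 20904, ranked 20106 in replicate 2. These 5 genes had pooled q-values from 0.207 to 0.674, and did not pass a threshold of 0.05.

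**Figure D2:**
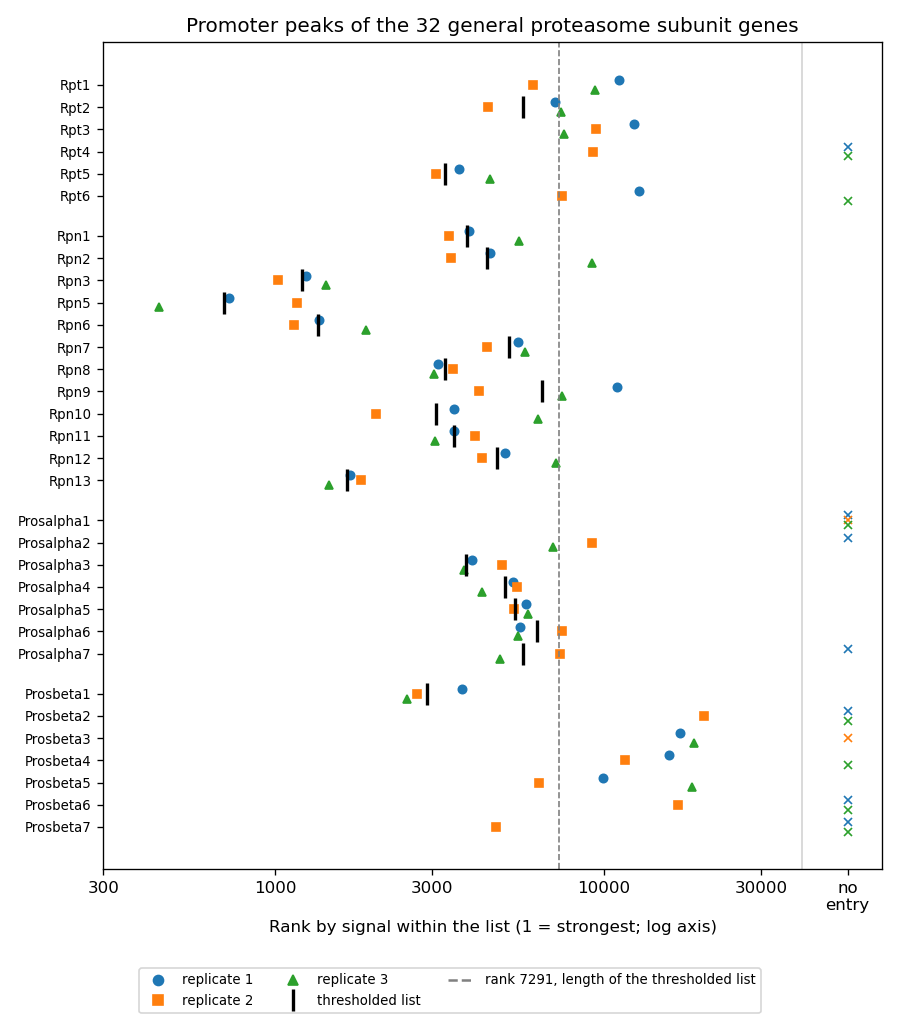
Rank by signal of the promoter peak of each of the 32 general subunit genes in the 3 replicate lists (coloured symbols) and the thresholded list (black ticks), on a log axis with the strongest to the left; crosses mark genes without an entry. Rpn5, Rpn3, Rpn6 and Rpn13 lie to the left of rank 2000 in every list, and most Rpt and beta ring genes lie to the right of rank 7291.

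The bound subunits had moderate signals. Their median signal was 307.0, with a range of 194.5 to 914.0, beside 403.3 over the promoter peaks of all 4242 bound genes and 319.2 over the thresholded list. Of the 20, 9 (45.0%) had a signal above the list's median, beside 62.1% of all bound genes, and 1 was among the strongest 10%, beside 16.4%. Of all 32 general subunits, those 9 are 28.1%, beside 18.9% of protein-coding genes with a promoter peak above that median. The class medians of signal were 338.8 for the 12 bound Rpn genes, 282.8 for the 2 Rpt genes and 230.9 for the 5 alpha ring genes.

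Most of the bound subunits were found in each replicate. In all, 15 of 20 were among the 7291 strongest peaks of all 3 replicates, 3 of 2 replicates and 2 of 1. With the full replicate lists, 19 of 20 had a promoter entry in each, and the exception was Prosalpha7 in replicate 1. The thresholded list was made from these same replicates, so such recurrence follows in part from the call. It was not computed over all bound genes, and no trait of the subunits is read from it. Ranks of a gene could still differ widely between replicates. Rpn2 ranked 4501, 3419 and 9190 in replicates 1, 2 and 3, and Rpn10 ranked 3500, 2022 and 6301.

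A looser call brought in more general subunits and no paralog. With pooled peaks at a q-value of 0.05 or less, 24 of 32 general subunits (75.0%) and 0 of 16 paralogs had a promoter peak, beside 39.8% of all protein-coding genes. The additions were Rpt1, Rpt3, Rpt6 and Prosbeta5. With any entry of the pooled list, significant or not, the counts were 31 of 32 (96.9%) and 0 of 16, beside 53.4%. In the full replicate lists the paralogs had 2 entries, both in replicate 2, at rank 22703 for Rpt3R (signal 21.9, q-value 0.256) and 17078 for Rpt6R (signal 28.7, q-value 0.0763).

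Distances to the nearest summit follow in part from these calls and are not separate support for them. From the start of a paralog, the nearest pooled summit was a median of 7963.5 bp away (range 1409 to 23889). For the 12 unbound general subunits this median was 84 bp (range 2 to 3273). The distance to pooled summits was not computed over all protein-coding genes. The nearest thresholded summit was a median of 12543.5 bp from the paralogs (range 3391 to 69926), 3436.5 bp from the unbound general subunits (range 1112 to 11964) and 7353 bp over all unbound protein-coding genes. Among the bound members, the summit farthest from a start, at Prosalpha4, was 310 bp away, inside the 500 bp limit. Among the unbound members, the closest thresholded summit was 1112 bp away, at Prosbeta6. The values of Prosalpha1 and Prosalpha1R, 3273 and 6366 bp, lie in repeated sequence.

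**Figure D3:**
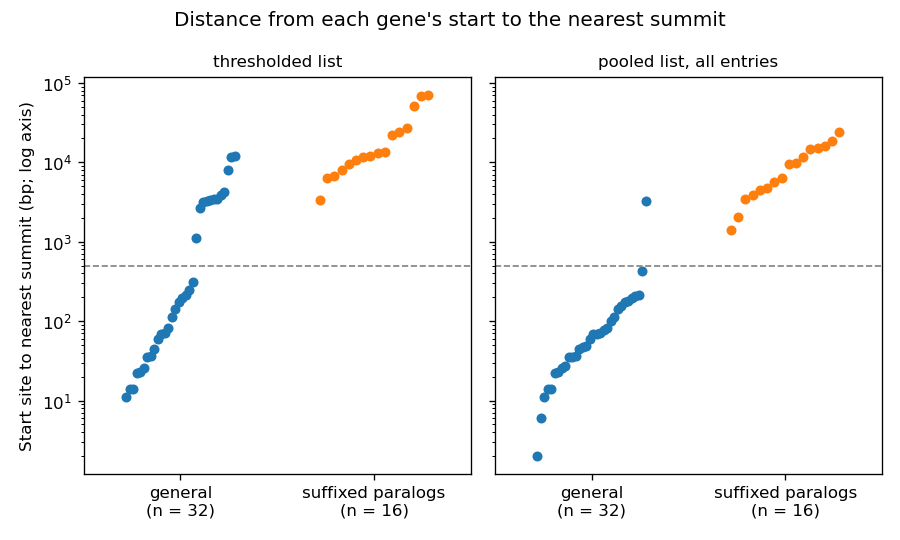
Distance in bp, on a log axis, from the start site of each of the 32 general subunits and 16 suffixed paralogs to the nearest summit of the thresholded list (left) and of the pooled list (right); the dashed line marks 500 bp. In the pooled list 31 general subunits lie under the line and the paralogs start at 1409 bp.

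Summits lay close to the subunits' own starts. The median was 52 bp upstream (−52 bp, with a range of −310 to 213), beside −115 bp over all bound genes. Of the 20 summits, 13 (65.0%) lay within 100 bp of a start, beside 41.9% of all bound genes, and 17 (85.0%) lay upstream, beside 89.1%. By annotation, 13 fell between genes, 5 in introns and 2 in the 5' UTR of the subunit, those of Rpn3 and Rpn10. The intronic ones were at Rpn6, Rpn8 and Rpn9, in their own introns, at Rpn5, in an intron of Hat1, and at Prosalpha4, in an intron of kat80. This split of summits by annotation was not computed over all bound genes.

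Most of these peaks could not be assigned to a subunit alone. The peaks of 15 of the 20 (75.0%) also lay within 500 bp of the start of another coding gene, beside 57.8% over all bound genes. The summit was nearest to the subunit's own start in 14 of 20, beside 72.0% over all bound genes. The summit was nearer to Hat1, a histone acetyltransferase gene (85 bp, against 194 bp to Rpn5), to Slik, a kinase gene (78 against 247 bp to Rpn8), to kat80, a katanin subunit gene (43 against 310 bp to Prosalpha4), or to the exosome subunit gene Rrp42 (50 against 71 bp to Prosbeta1). The summit between RanBP3 and Rpt5 lay 20 bp from the former and 22 bp from the latter. No 2 subunits shared a peak. Peaks at Rpn1, Rpn10, Rpn11, Rpn12 and Prosalpha5 had no other coding start within 500 bp.

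**Figure D4:**
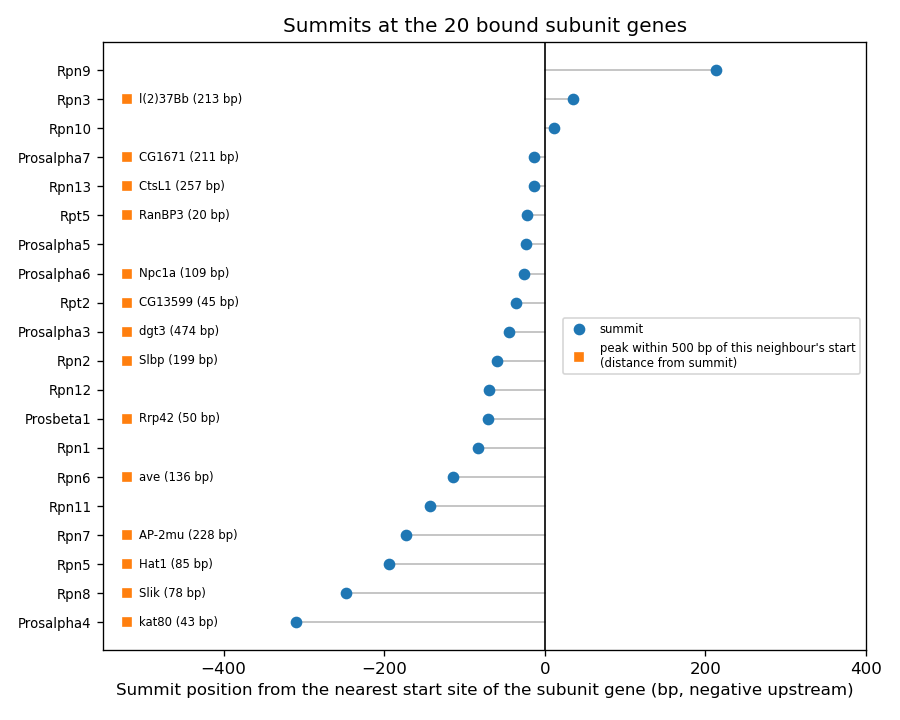
Position of the thresholded summit relative to the nearest start site of each of the 20 bound general subunit genes, in bp with upstream negative; orange squares, at the left margin and not at a position, name the neighbouring genes reported here whose start was also within 500 bp, with the distance from the summit. The summits run from −310 bp at Prosalpha4 to 213 bp at Rpn9.

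A start of a neighbour on the opposite strand, pointing away within 500 bp (a head-to-head neighbour), was found at 18 of 32 general subunits (56.2%) and 2 of 16 paralogs (12.5%), beside 25.0% of all protein-coding genes. Over all genes, 57.7% of those with such a neighbour were bound and 21.3% of those without. General subunits were bound in 11 of 18 (61.1%) with such a neighbour and in 9 of 14 (64.3%) without. The first share was near that of all genes with such a neighbour, and the second was above that of all genes without. Of the paralogs, the 14 without a neighbour and the 2 with one, Prosalpha1R and Prosbeta2R2, were unbound. A single coding exon was found in 6 of 16 paralogs (37.5%), 4 of 32 general subunits and 20.1% of all genes. Of genes with a single coding exon 19.0% were bound, and 2 of the 4 such general subunits. These splits were chosen after seeing the data.

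The DRE was frequent in the promoters of general subunits. Within 250 bp upstream to 50 bp downstream of the most upstream start, TATCGATA was found in 12 of 32 (37.5%), in 0 of 16 paralogs and in 1305 of 13945 protein-coding genes (9.36%). The 12 were Rpt5, Rpn3, Rpn7, Rpn9, Rpn12, Rpn13, Prosalpha3, Prosalpha5, Prosalpha6, Prosbeta1, Prosbeta2 and Prosbeta6, and 10 of them were bound. Over all genes, 51.2% of those with the DRE in this window were bound and 28.3% of those without. General subunits without it were bound in 10 of 20. Among these, Rpn6 and Rpn8 were bound only at another start, so the window searched did not lie at their peak. Near the summits, TATCGATA lay within 50 bp in 6 of 20 bound subunits (30.0%), beside 174 of 3013 windows (5.77%) at the strongest promoter peaks of all bound genes. Its core ATCGAT, chosen after seeing the data, was there in 10 of 20 (50%), beside 13.7%. The sequences given above for Rpn1, Rpn2, Rpn12, Rpt2 and Prosalpha6 are among these, and that of Rpn5 is not.

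**Figure D5:**
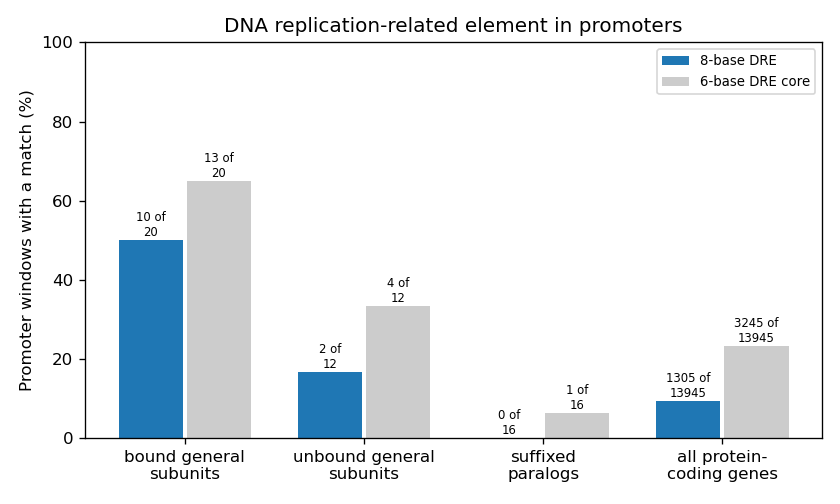
Percent of promoter windows that hold the DRE or its core, for bound and unbound general subunits, suffixed paralogs and all protein-coding genes; numbers over the bars give genes with a match of genes in all. The DRE was found in 10 of 20 bound and 2 of 12 unbound general subunits and in 0 of 16 paralogs.

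The other elements searched, among them those associated with Xbp1, were each found in at most 5 of the 20 summit windows. No difference from other bound promoters is read from such small counts. TGACGTGG, the unfolded protein response element, was found in 0 of 20 summit windows, beside 0.73% of all such windows, and in 0 of 32 general promoters, beside 0.373% of all promoters. The bZIP core ACGT, which TGACGTGG and the E-box CACGTG contain, was found in 5 of 20 summit windows, beside 20.4%, and in 16 of 32 general promoters, beside 48.4%. CCACG, a part of the ER stress element whose reverse complement lies in TGACGTGG, was found in 1 of 20 summit windows, beside 7.7%, and CACGTG in 0, beside 1.26%. TGANNNNGC, the element of the proteasome gene activator Cap-n-collar (Cnc), was found in 1 of 20 summit windows, beside 12.6%, and in 10 of 32 general promoters, beside 35.6%. The core promoter motif GGTCACAC was found in 1 of 20 summit windows, beside 3.09%, and in 5 of 32 general promoters (15.6%), beside 7.7%. Motifs were read on both strands, and a match or its lack describes only the letters of the window. The median GC content of the summit windows was 36.6%, as in all bound promoters, and that of general, paralog and all promoters 33.5, 32.7 and 38.0%.

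Other genes of the proteasome pathway, from a list of 33 drawn up from general knowledge, were bound in 23 cases, beside 30.4% of all protein-coding genes. In the 7291 strongest peaks of the replicates their mean share was 67.7% ± 1.75 (SD, n = 3). By group, 6 of 8 assembly and regulation genes, 5 of 5 genes of the Cnc transcription pathway, 7 of 11 genes of ubiquitin supply and delivery and 5 of 9 signalosome genes were bound. The signalosome is a complex built like the proteasome lid that removes a ubiquitin-like protein from ubiquitin ligases.

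The highest pathway signals exceeded most of those at the subunits. The signalosome gene alien had 1738.0 (rank 178), with 838.3, 396.8 and 511.2 in the replicates (ranks 144, 374 and 119). Pomp, the chaperone of core particle assembly, had 796.6 (rank 928), with 345.3, 250.5 and 202.1 (ranks 958, 959 and 841). The F-box gene ntc had 642.1 (rank 1371), with 274.4, 187.9 and 170.5 (ranks 1448, 1635 and 1154). Each of these peaks kept a place among the 2000 strongest in every replicate. Of the 23 pathway peaks, 15 also lay within 500 bp of another coding start, and 5 had their summit nearer to that gene. Over all bound genes, 57.8% shared their peak in this way, and 72.0% had the summit nearest to their own start. The summit at alien was 132 bp from its start and 94 bp from that of CG18661, and the summit at ntc lay 126 bp from its start and 125 bp from that of IntS10.

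The Cnc group comprised cnc itself (600.2), its inhibitor Keap1 (475.6), Pngl, a peptide N-glycanase gene (381.9), rngo, related to the protease that activates Cnc-type factors in other animals (210.4), and maf-S, which encodes the small Maf partner of Cnc (176.3), where the summit was nearer to rig (37 against 258 bp). Of the unbound pathway genes, CSN1a had no entry in any list, CSN6 had a pooled entry with a q-value of 0.179 and a signal in replicate 2 alone (60.8), and CSN7 had a pooled q-value of 0.00418 with signals of 54.9 and 41.5 in replicates 1 and 3.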

How the data were processed

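Per the submitters' text files, deposited beside the lists, calling used a control alignment, and the thresholded dm6 list was made from a pooled list and the lists of the 3 replicates, which are described as peaks with background. Which aligner and caller were used is not given in the sources used here. Each peak carries a signal of unstated scale and a −log10 q-value, both deposited by the authors. Signal was used to rank peaks within a list. The thresholded peaks were the 7291 of highest signal in the pooled list. The replicate lists held 21686, 30000 and 23357 entries, of which 9930, 16056 and 8109 passed a q-value threshold of 0.05. The replicate 2 list may have been cut at its length. Read totals were not analysed here, so depth is unknown.

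Start sites came from Ensembl BDGP6.54 (release 115), limited to chromosomes present in the peak lists, and sequences from the Release 6 genome, whose chromosome lengths held every peak. Replicate lists were compared by their 7291 strongest peaks. Intervals are Clopper-Pearson exact 95% intervals over genes. Nothing was tested for significance, since there was 1 group. The members, the pathway list, the motifs and the alternatives were chosen with earlier results of these data known. Of the pathway names, 30 matched a symbol and 3 a synonym. Replicate values are given for the 3 bound members of highest signal in each class, for unbound general subunits, and for 3 bound and the first 3 unbound pathway genes. The name of 1 neighbouring gene is not reported here. Alternatives changed the promoter distance, the list, the start sites and the rule for shared peaks, and left out each replicate. To leave out a replicate, thresholded peaks were kept only if they overlapped a peak among the 7291 strongest of both other replicates. The thresholded list itself was not remade and still rested on all 3 replicates. The code for promoter calls was checked on simulated data, in which 2000 made-up genes gave 0 wrong calls. Each of those genes had a single start and a single peak. Shared peaks, several starts and repeated sequence were not part of the check. Matplotlib 3.10.9, pandas 2.3.3, SciPy 1.17.1, NumPy 2.4.6 and Python 3.11.15 were used.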

Additional observations from a re-analysis of the deposited data

How the results depend on the processing

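The suffixed paralogs had 0 promoter peaks under each of the 10 alternatives, and 8 of 12 unbound general subunits stayed unbound under them. Of the 20 bound, Rpn3, Rpn10, Rpn11 and Rpn13 were bound under all 10. Bound general subunits numbered 17 within 200 bp, 20 within 1000 bp, 24 with pooled q-values of 0.05 or less, 17 with a start inside the peak, 14 when a peak went to its nearest gene, 18 with the most upstream start, and 15 to 17 with a replicate left out. Requiring signal above the list's median left 9 general subunits (1 Rpt, 7 Rpn, 0 alpha ring) and 12 pathway genes. The share of all protein-coding genes was 39.8% by pooled q-value and 18.9% above the median signal. Under the other alternatives it was not computed, so those counts have no genome-wide share beside them. A start inside the peak left 14 pathway genes. With pooled q-values the counts were 5 Rpt and 2 beta ring genes, and with the nearest gene 1 and 0. Of the 12 Rpn genes, 9 stayed bound by nearest gene, and Rpn5, the strongest member, did not. Within 200 bp, with a start inside the peak or with the most upstream start, 10 Rpn genes were bound. Leaving out a replicate gave 1 to 2 Rpt and 3 to 4 alpha ring genes. The difference between general and paralog shares was 62.5 percentage points, 53.1 within 200 bp or with a start inside the peak, 28.1 above the median signal, 75.0 by pooled q-value, 43.8 by nearest gene, 56.2 by the most upstream start, and 46.9 to 53.1 with a replicate left out. The median percentile of signal, 47.6 of the list, was 41.2 among promoter peaks, 39.9 in the replicate 3 list and 52.2 to 55.0 with a replicate left out. The mean replicate share of general subunits, 59.4%, was 83.3% with full lists and 70.8% at q-values of 0.05 or less. The cause of these movements was not tested. The class counts, and those without the repeated Prosalpha1 pair, were added after seeing the data. Depth is unknown. Replicate 2, whose list was the longest at 30000 entries, had a promoter entry for 10 of 12 unbound general subunits. Replicates 1 and 3 had one for 6 and 5 of them. Such shares were not computed over all unbound protein-coding genes, so these counts have no genome-wide share beside them. No paired analysis was possible because there was 1 group.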
